A study of Mus musculus with 2 samples.

Results

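Mir9, Mir124a, Mir128, Mir137 and Mir153 are 5 families of microRNA (miRNA) genes best known from neurons. Their 10 hairpin genes were chosen by symbol. Of the 10, 9 were matched to identifiers among the 1973 miRNA genes of the deposited tables, and the own count of Mir9-1 was not analysed here. The tissue was the facial prominences of B6NCrl mouse embryos at embryonic day 10.5, labelled healthy and given no treatment in the labels. The series holds 1 group of 2 biological replicates, pools of 69 embryos (replicate 1) and 51 embryos (replicate 2), both of mixed sex and listed under the same donor. Each pool gave 1 miRNA library from total RNA, with a size range labelled as below 30, taken here as nucleotides. The comparisons are therefore among the genes and between the 2 pools.

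A miRNA gene is transcribed as part of a longer RNA that folds into a hairpin. The hairpin is cut to a short duplex, and one arm guides Argonaute to messenger RNAs that pair with its seed, bases 2 to 8. miR-9 is made in neural progenitors and young neurons, and miR-124 is the miRNA best known for marking neurons that have left the cell cycle. miR-137 and miR-128 act in neuronal maturation and synapses, and miR-153 is known for its control of synaptic and secretory proteins. The face at this stage is mostly neural crest mesenchyme under surface epithelium, with the first sensory ganglia and placodes close by.

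The sequences are shown first because copies that make the same mature miRNA differ little around it. RefSeq (GRCm38.p6, the same build as mm10) held hairpins for 7 of the 10 genes. In the mature sequences that follow, written 5′ to 3′, capitals mark the seed.
miR-9-5p (Mir9-1, Mir9-2, Mir9-3): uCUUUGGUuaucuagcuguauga
miR-9-3p (Mir9-1, Mir9-2, Mir9-3): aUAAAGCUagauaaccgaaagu
miR-137-3p (Mir137): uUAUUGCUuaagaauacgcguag
miR-137-5p (Mir137): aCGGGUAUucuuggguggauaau
miR-128-3p (Mir128-1, Mir128-2): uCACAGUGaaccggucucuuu
miR-128-1-5p (Mir128-1): cGGGGCCGuagcacugucuga
miR-128-2-5p (Mir128-2): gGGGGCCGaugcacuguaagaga
miR-153-3p (Mir153): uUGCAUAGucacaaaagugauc
miR-153-5p (Mir153): gUCAUUUUugugacguugcagcu

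All 3 Mir9 hairpins hold both miR-9 arms, and both Mir128 hairpins hold miR-128-3p. The 5p arms of Mir128-1 and Mir128-2 differ from each other but have the same seed. Each arm of Mir137 and Mir153 was found in 1 hairpin of the 1005 in that table. No mature miRNA of another gene in the table had the same bases 2 to 8 as any of these arms. The miR-27 arms come close, a case chosen after it was seen. Bases 1 to 8 of miR-128-3p are bases 2 to 9 of miR-27b-3p, capitalised in this line.
miR-27b-3p (Mir27b): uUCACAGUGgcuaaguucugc
Mir27b had 1449 CPM (replicate 1) and 1249 CPM (replicate 2), both above the summed Mir128 counts of 77.8 and 83.6 CPM. The Mir128 sum leaves out reads that fit both copies, while Mir27b shares no arm with another hairpin, so the levels are not like for like. CPM is the count of a gene per 1000000 counts summed over all miRNA genes of its library.

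The hairpins of the multi-copy genes follow with their mature arms in capitals, to show where the copies part.
Mir9-1 (chr3:88215598-88215686, plus strand): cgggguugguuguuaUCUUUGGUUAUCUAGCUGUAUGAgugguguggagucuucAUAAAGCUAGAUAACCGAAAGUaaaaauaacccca
Mir9-2 (chr13:83738814-83738885, plus strand): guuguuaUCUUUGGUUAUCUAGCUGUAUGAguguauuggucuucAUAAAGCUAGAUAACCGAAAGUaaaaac
Mir9-3 (chr7:79505264-79505353, plus strand): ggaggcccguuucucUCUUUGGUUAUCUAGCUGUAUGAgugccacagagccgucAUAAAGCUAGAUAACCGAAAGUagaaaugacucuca
Mir128-1 (chr1:128202361-128202430, plus strand): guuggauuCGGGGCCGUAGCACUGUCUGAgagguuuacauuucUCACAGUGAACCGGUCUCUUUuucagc
Mir128-2 (chr9:112118636-112118711, minus strand): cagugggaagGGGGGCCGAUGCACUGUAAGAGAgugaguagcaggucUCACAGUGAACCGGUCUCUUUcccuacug

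Mir9-1 and Mir9-2 were identical over at least 33 bases around the 5p arm, where the shorter hairpin ends, and over 33 bases around the 3p arm, both longer than the labelled size limit of 30. Mir9-3 matched either of them over 26 bases at the 5p arm and 25 bases at the 3p arm, so it parted from the other copies at the base before the 5p arm. The Mir128 hairpins were identical over 23 bases around the 3p arm and differed through the 5p arm. Counted in windows of 20 bases, 25 of 53 windows of Mir9-2 (47.2%) were in no other hairpin, against 58 of 71 in Mir9-3 (81.7%), 47 of 51 in Mir128-1 (92.2%) and 53 of 57 in Mir128-2 (93.0%). All 54 windows of Mir137 and all 50 of Mir153 were in no other hairpin. These windows run over the whole hairpin, loop and flanks included. In Mir9-3 as in Mir9-2 both arms lie wholly inside shared stretches, so a read of exactly 1 whole arm fits several copies. This bears on the counts, because the tables keep reads that map to several places in a line of their own, 27.6% and 25.9% of all reads, outside the gene counts. The tables hold no read sequences, so which arm gave the reads of a gene was not tested.

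**Figure D1:**
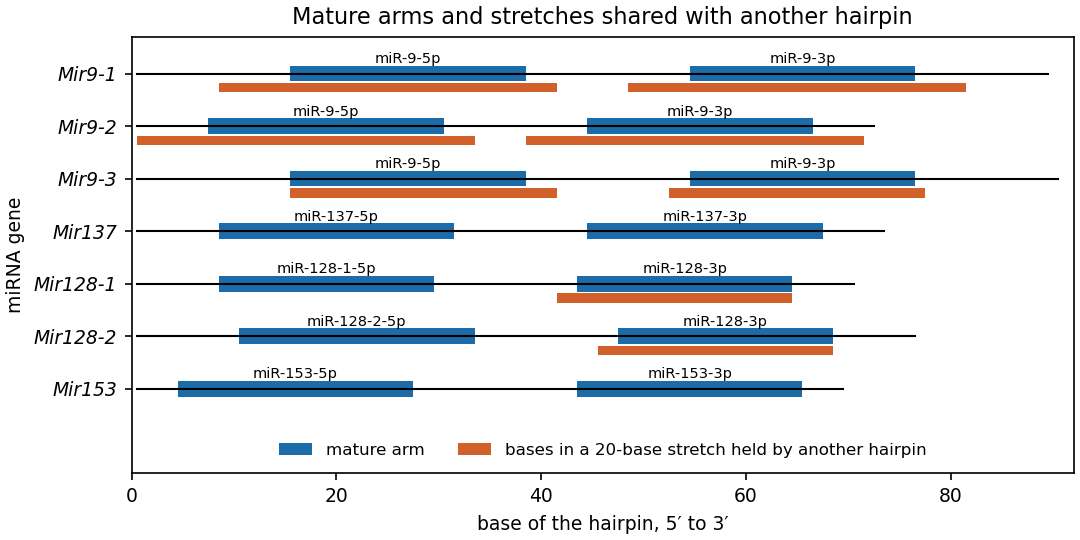
Hairpins of 7 genes drawn to scale, with the base of the hairpin from 5′ to 3′ on the x axis. Blue boxes are mature arms and orange bars are bases inside a 20-base stretch that another RefSeq hairpin also holds. Both arms lie in such stretches in the 3 Mir9 hairpins, the 3p arm does in both Mir128 hairpins, and Mir137 and Mir153 have none.

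Sense counts in miRNA genes came to 2853511 for replicate 1 (41.8% of its 6828248 reads) and 3517226 for replicate 2 (40.7% of 8643947). A count of 0 was taken to allow up to 3 counts, or 1.05 CPM for replicate 1 and 0.853 CPM for replicate 2. This fixed limit is lower than the upper bound of the counting intervals given below, which is 1.29 CPM for 0 counts in replicate 1. The labelled tissue was checked against marker miRNAs. The 7 mesenchymal genes, led by Mir214, summed to 30706 and 27041 CPM, and the 7 epithelial genes, led by Mir205, to 28691 and 23965 CPM. Mir126a led the 4 endothelial and blood genes with 31642 and 34369 CPM, and Mir375 the 4 endocrine genes with 1289 and 1489 CPM. The 5 genes known from liver, heart and Hox-expressing regions summed to 363 and 652 CPM, led by Mir10a with 156 and 347 CPM. Mir122 of the liver was lower, at 12.6 and 15.4 CPM. Intervals are exact 95% counting intervals, and since amplified reads are not independent molecules they cover counting error only. In a bulk sample fewer cells of a type and less of an RNA per cell cannot be told apart.

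Among reads assigned to single genes, the neuronal genes were a minor part of the facial miRNA profile. Mir137 and Mir153 made up most of the neuronal counts. Reads that fit several copies of Mir9, Mir124a or Mir128 are outside these sums and shares, so they are not the shares of the mature miRNAs. The 9 counted genes summed to 1187 CPM (interval 1147 to 1228) for replicate 1 and 1126 CPM (1091 to 1161) for replicate 2, a mean of 1156 ± 43.4 CPM (SD, n = 2). That is 0.119% and 0.113% of all miRNA counts. Mir137 and Mir153 together held 89.9% of the neuronal counts in replicate 1 (exact Clopper-Pearson interval 88.8% to 90.9%) and 89.3% in replicate 2 (88.3% to 90.2%). Detection was set at 10 counts or more per library, and 5 of the 9 met it, Mir137, Mir153, Mir128-1, Mir9-3 and Mir128-2. The 3 Mir124a copies and Mir9-2 did not.

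**Figure D2:**
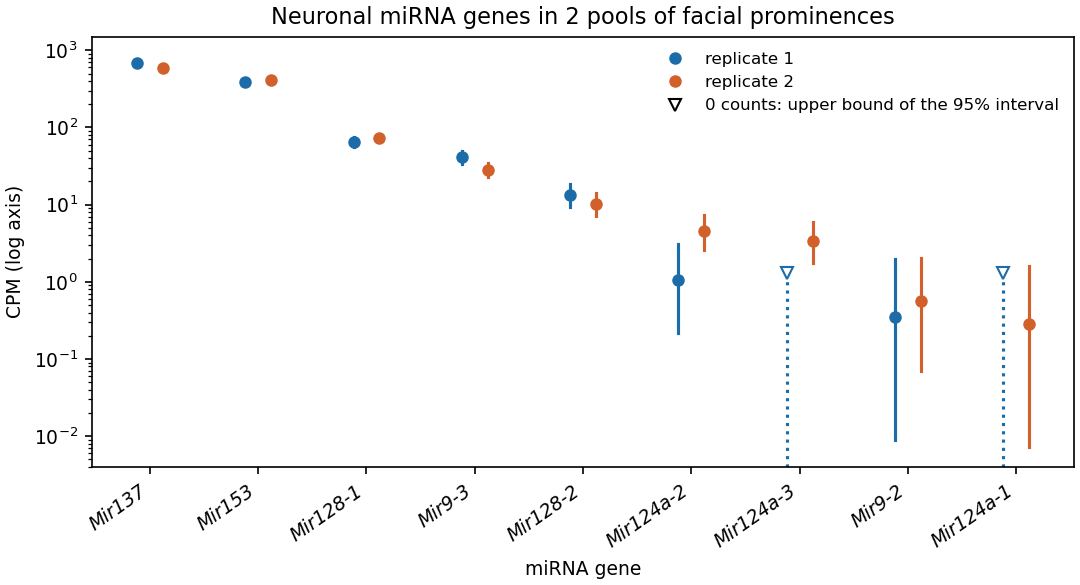
CPM on a log axis for the 9 counted genes in replicate 1 (blue) and replicate 2 (orange), with exact 95% counting intervals as bars. Open triangles mark the upper bound where the count was 0. Mir137 and Mir153 stand between 387 and 680 CPM, Mir128-1, Mir9-3 and Mir128-2 between 10.2 and 73.4 CPM, and the Mir124a copies and Mir9-2 at or below 4.55 CPM.

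Mir137 was the highest of the genes in both libraries. It is a single-copy gene in an exon of the non-coding RNA Gm26871 (ENSMUSG00000065569.1, chromosome 3, 118433857 to 118433929, mm10). It had 1941 counts (680 CPM, interval 650 to 711) in replicate 1 and 2084 counts (593 CPM, 567 to 619) in replicate 2. With a mean of 636 ± 62.0 CPM (SD, n = 2) it ranked 118 among all 1973 genes. Mir153 followed, in an intron of Ptprn2, which encodes a protein of dense-core secretory vesicles (ENSMUSG00000065538.1, chromosome 12, 117250817 to 117250885). It had 1103 counts (387 CPM, 364 to 410) and 1450 counts (412 CPM, 391 to 434), a mean of 399 ± 18.2 CPM and rank 139. Mir137 stood 1.76-fold above Mir153 in replicate 1 and 1.44-fold above it in replicate 2, and their values did not overlap. No length scaling was applied, because the mature arms are all 21 to 23 bases long.

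The Mir128 copies lie in introns of 2 coding genes and differed in level. Mir128-1 is in R3hdm1 on chromosome 1 (ENSMUSG00000065520.1) and had 184 counts (64.5 CPM, 55.5 to 74.5) and 258 counts (73.4 CPM, 64.7 to 82.9). Mir128-2 is in Arpp21, a gene of striatal and other neurons, on chromosome 9 (ENSMUSG00000065441.1), and had 38 counts (13.3 CPM, 9.42 to 18.3) and 36 counts (10.2 CPM, 7.17 to 14.2). Both values of Mir128-1 were above both of Mir128-2. Reads of the identical 3p arm that stay within its 23 shared bases cannot be assigned to either copy, so the copies' own levels are uncertain and neither value is the level of miR-128-3p.

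The Mir9 copies were far apart in the tables. Mir9-3, in an intron of the non-coding Mir9-3hg (ENSMUSG00000093238.1, chromosome 7, 79505264 to 79505353), had 117 counts (41.0 CPM, 33.9 to 49.1) in replicate 1 and 100 counts (28.4 CPM, 23.1 to 34.6) in replicate 2. Mir9-2, in an exon of the non-coding C130071C03Rik (ENSMUSG00000065424.1, chromosome 13, 83738814 to 83738885), had 1 and 2 counts (0.350 and 0.569 CPM), both under the 3-count limit. Mir9-3 is the copy whose neighbourhood of the arms differs most from the others in the hairpins printed above. Mir9-1 lies in an intron of the non-coding Gm3764 (ENSMUSG00000106493, chromosome 3, 88215598 to 88215686), and a miRNA gene, Gm25641, overlaps it on the opposite strand. Reads on the strand of Mir9-1 at Gm25641 came to 11 counts (3.85 CPM) in replicate 1 and 8 counts (2.27 CPM) in replicate 2, and Gm25641 itself had 0 and 0 counts. Since reads that fit several Mir9 copies are outside these counts, they give no level for miR-9 as a whole, and the part of shared sequence in the gap between the copies was not tested.

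The Mir124a copies were at or near the counting limit. These 3 genes make the same mature miR-124. Mir124a-2, in an exon of Mir124-2hg (ENSMUSG00000093073.1, chromosome 3, 17795662 to 17795770), had 3 counts (1.05 CPM, 0.217 to 3.07) in replicate 1 and 16 counts (4.55 CPM, 2.60 to 7.39) in replicate 2. Mir124a-3 lies outside annotated host genes (ENSMUSG00000065454.1, chromosome 2, 180894040 to 180894107), with 0 counts in replicate 1 and 12 counts (3.41 CPM, 1.76 to 5.96) in replicate 2. Mir124a-1, in an exon of Mir124a-1hg (ENSMUSG00000065597.1, chromosome 14, 64590657 to 64590741), had 0 counts and 1 count. Together the 3 copies held 3 and 29 counts, 1.05 and 8.25 CPM. The limit for 3 counts applies to reads assigned to a single copy, so a low miR-124 level and reads left out for fitting several copies cannot be told apart here.

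By mean CPM the order was Mir137, Mir153, Mir128-1, Mir9-3, Mir128-2, Mir124a-2, Mir124a-3, Mir9-2 and Mir124a-1. The first 5 genes in that order did not overlap in their values or in their counting intervals within either library. Mir128-2 stood 12.7-fold above Mir124a-2 in replicate 1, the widest gap there between neighbours that both had counts, and 2.25-fold above it in replicate 2, where their intervals overlapped (10.2 against 4.55 CPM). Among Mir124a-2, Mir124a-3, Mir9-2 and Mir124a-1, the intervals of neighbours overlapped in both libraries, so neighbours are not ordered beyond counting error. Further apart, and only in replicate 2, the interval of Mir124a-2 lay above those of Mir9-2 and Mir124a-1, and that of Mir124a-3 above that of Mir124a-1.

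Over all miRNA genes with sequences, sharing an arm did not go with detection in a simple way. Of 858 genes that could be classed, 775 held no arm found in another hairpin, and 278 of them (35.9%) were detected. Of 34 genes whose every arm was shared, 7 (20.6%) did, and of 49 with some arms shared, 36 (73.5%) did. Among the neuronal genes, Mir137 and Mir153 fall in the first class, Mir9-2 and Mir9-3 in the second and the Mir128 copies in the third. These shares are descriptions of the table, with no test.

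The pools were compared by a two-sided exact binomial test of each gene's counts given the total of each library. Its p-values were adjusted by Benjamini and Hochberg's method over the 449 genes with 10 counts or more in all. Such a test sets library against library beyond counting error, and with 1 library per pool it says nothing of a condition. Of the 9 counted genes 7 could be tested, and 4 of them passed at an adjusted p under 0.05, where 40.3% of all tested genes did. Of these 4, 2 were higher in replicate 2, Mir124a-2 and Mir124a-3, beside 20% of all tested genes, and 2 were lower, Mir137 and Mir9-3, beside 20.3%. Mir124a-2 (3 and 16 counts) and Mir124a-3 (0 and 12 counts) met the minimum of 10 only through replicate 2, where they are high. Their calls are therefore not counted as support for a difference between the pools. With a minimum of 20 counts in all, neither was tested, and 2 of the 9 genes passed, where 45.5% of all tested genes did. The median log2 ratio, replicate 2 over replicate 1, was 0.09 over the 7 genes and 0.01 over all 449, and the median size of the ratio regardless of sign was 0.36 and 0.23.

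Mir137 was lower in replicate 2 by a small margin. Its log2 ratio was -0.20 (interval -0.29 to -0.11, adjusted p = 5.0e-05 by the exact binomial test), and 46.5% of the tested genes had a ratio of smaller size. Mir9-3 was lower too, with a log2 ratio of -0.52 (-0.93 to -0.13, adjusted p = 0.0212). Mir153, with 0.09 (-0.02 to 0.21, adjusted p = 0.217 by the same exact test), Mir128-1, with 0.18 (-0.09 to 0.47, adjusted p = 0.357), and Mir128-2, with -0.36 (-1.08 to 0.32, adjusted p = 0.470), did not pass. As a ratio of replicate 2 to replicate 1, the counting interval ran from 0.986 to 1.15 for Mir153 and from 0.938 to 1.38 for Mir128-1. For Mir128-2 it ran from 0.473 to 1.25. Differences within these bounds were not excluded.

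**Figure D3:**
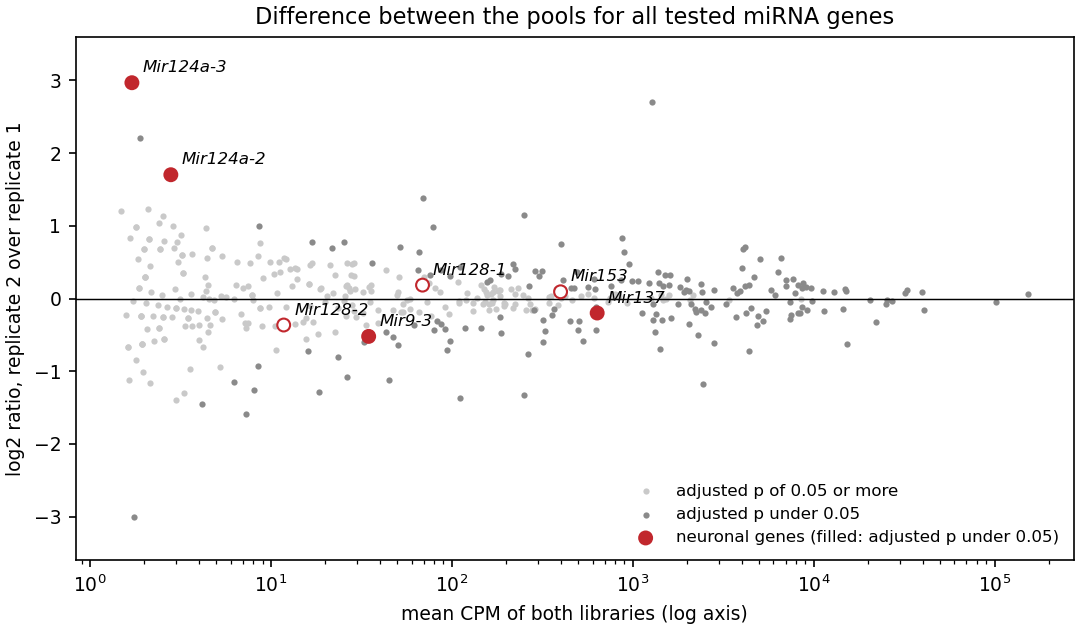
Log2 ratio, replicate 2 over replicate 1 (0.5 CPM added to both), against mean CPM (log axis) for the 449 tested miRNA genes, in light grey or, where the adjusted p was under 0.05, dark grey. Red circles are the 7 tested neuronal genes, filled where they passed. Mir137 and Mir9-3 lie below the line and Mir124a-2 and Mir124a-3 far above it, where the plotted ratio of Mir124a-3 depends on the pseudocount because replicate 1 had 0 counts.

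The Mir124a copies differed most between the pools, on few reads. Mir124a-2 and Mir124a-3 reached the 10-count minimum of the test only through replicate 2. Mir124a-2 had 4.33-fold more CPM in replicate 2, with a counting interval of 1.24-fold to 23.2-fold (adjusted p = 0.0288 by the exact binomial test). Mir124a-3, with 12 counts in replicate 2, stood in CPM at 3.25-fold the limit of 3 counts for replicate 1. The counting interval of the ratio, which also takes in the error of the 12 counts, starts lower, at 2.25-fold (adjusted p = 0.00282 by the exact binomial test). With reads on both strands added, the counts of Mir124a-3 were 4 and 16 and the adjusted p was 0.0924, so this call rests on the strand. Among the 93 tested genes with 10 to 30 counts in all, a range chosen after the values were seen, 5 passed the test, and Mir124a-2 and Mir124a-3 are 2 of these. The other genes of that group with a ratio at least as far from 0 as that of Mir124a-2 were Mir511, with 10 and 0 counts, and Mir1199, with 1 and 12.

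Markers of another neural lineage moved between the pools as well. Mir219a-2, known from oligodendrocyte development, had 339 CPM in replicate 1 and 2217 CPM in replicate 2, and Mir219a-1 had 299 and 504 CPM, while Mir338 had 43.8 and 34.7 CPM. The 3 counted glial genes summed to 682 and 2756 CPM, 4.04-fold higher in replicate 2, mostly from Mir219a-2. Of the 3, Mir219a-1 and Mir219a-2 passed the exact binomial test as higher, beside 20% of all tested genes, and Mir338 did not pass. Mir10a of the Hox clusters rose in the same direction, from 156 to 347 CPM, as did Mir208b of the heart, from 38.2 to 100 CPM. Of the 5 genes in their list, 3 passed as higher and 0 as lower. The sensory Mir183, Mir96 and Mir182 went the other way, from a sum of 36062 to 27292 CPM, and all 3 passed as lower. So did 6 of 7 epithelial and 4 of 7 mesenchymal genes, with 0 higher in either list. Over all tested genes, 20% passed as higher and 20.3% as lower. The part of these differences in those of Mir124a, Mir137 and Mir9-3 was not tested.

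A list of 24 other miRNA genes known from neurons gave the setting for these levels. All 24 had a count, 22 were detected, and they summed to 16043 and 15773 CPM, a mean of 15908 ± 191 CPM (SD, n = 2). The median of their mean levels was 68.6 CPM, beside 11.8 CPM for the 9 genes of Mir9, Mir124a, Mir128, Mir137 and Mir153. For all 376 genes detected in both libraries it was 164 CPM. These medians are not like for like, because only the last leaves out undetected genes, and reads that fit several copies are not counted. Among the 5 detected genes of the 9, the middle one was Mir128-1, with a mean of 68.9 CPM. By mean, 5 of the 24 were above Mir137. These were Mir149 with 7715 and 8127 CPM, Mir708 with 2503 and 2246 CPM, Mir134, which limits the size of dendritic spines, with 1821 and 1729 CPM, Mir135b with 1478 and 1453 CPM, and Mir433 with 1203 and 1047 CPM. Mir149, Mir708 and Mir135b are also made outside the nervous system. Which cells gave the counts of Mir134, Mir433 or any other gene of the list was not tested.

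Below Mir137 stood genes tied to neuronal activity and subtypes. Mir330 had 301 and 272 CPM, Mir495 156 and 151 CPM, and Mir384 134 and 128 CPM. The activity-induced Mir132 had 59.2 and 58.9 CPM, near Mir128-1, while its neighbour Mir212 had 5.96 and 6.82 CPM. Mir138-2 and Mir138-1, which act at dendritic spines, had 135 and 102 CPM and 118 and 78.2 CPM. Mir218-2, in motor neurons, had 69.4 and 80.5 CPM, against 11.9 and 9.10 CPM for Mir218-1. The remaining detected genes ran from Mir874, with a mean of 91.4 CPM, through Mir135a-1, Mir326, Mir488, Mir129-2, Mir135a-2 and Mir346 to Mir383, with a mean of 4.38 CPM. The lowest of the 24 were Mir873a with 7 and 5 counts and Mir129-1 with 7 and 3.

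**Figure D4:**
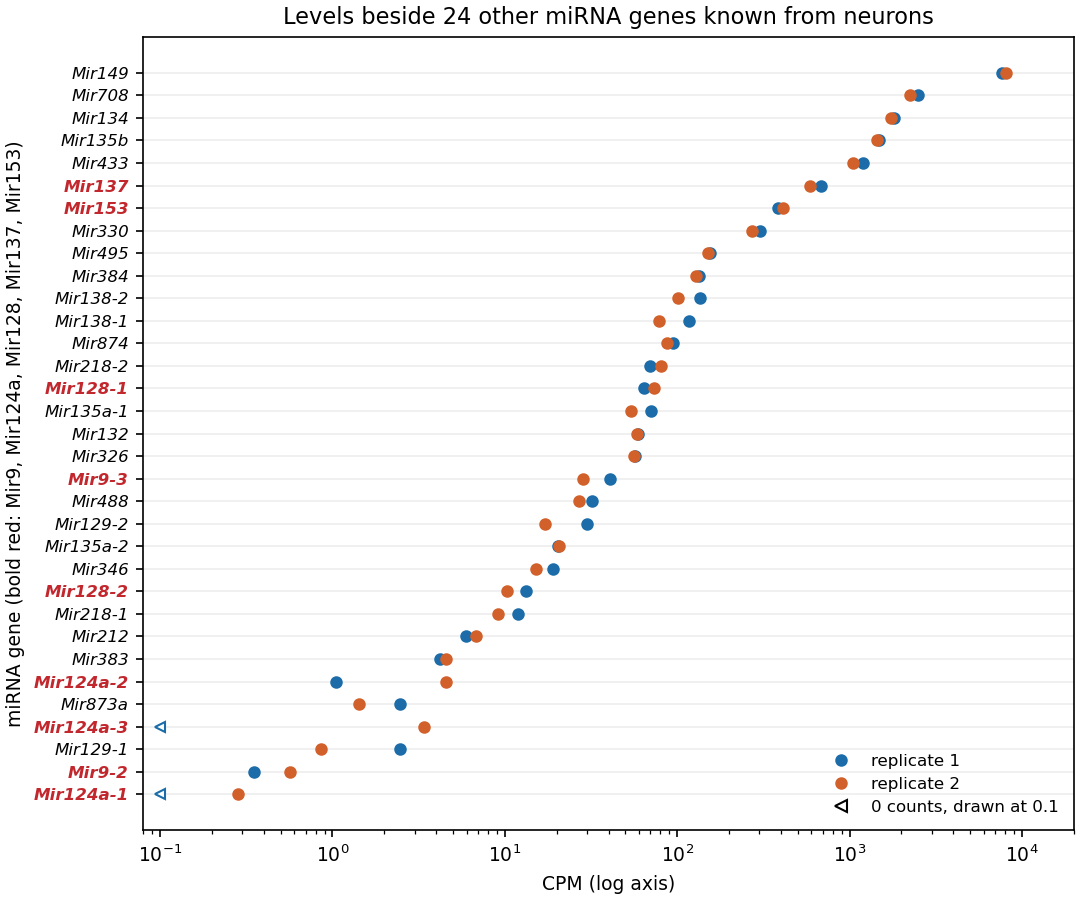
CPM on a log axis in replicate 1 (blue) and replicate 2 (orange) for the 9 counted genes of Mir9, Mir124a, Mir128, Mir137 and Mir153 (bold red names) and 24 other miRNA genes known from neurons, sorted by mean. Counts of 0 are open triangles at 0.1. Mir137 and Mir153 stand just below the 5 highest genes, and the Mir124a copies and Mir9-2 are among the lowest.

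Between the pools, 8 of the 24 passed the exact binomial test, 1 higher in replicate 2 (Mir149) and 7 lower (Mir708, Mir433, Mir134, Mir138-1, Mir138-2, Mir135a-1 and Mir129-2), with the same background of 20% and 20.3%. Their median log2 ratio was -0.13. Mir138-1 fell by 0.59 on the log2 scale (adjusted p = 2.2e-06 by the exact binomial test) and Mir129-2 fell by 0.80 (adjusted p = 0.00266), while Mir132 was at -0.01 (adjusted p = 1.00) and did not pass.

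With only 2 libraries, likeness to other genes could be judged by level alone. The gene outside the 5 families nearest in log2 CPM over both libraries was Mir542 for Mir137 (651 and 601 CPM, distance 0.07), Mir669l for Mir153 (388 and 409 CPM, distance 0.01) and Mir539 for Mir128-1 (63.4 and 77.9 CPM, distance 0.09). For Mir9-3 it was Mir6240 (37.8 and 29.3 CPM, distance 0.12), and for Mir128-2 Mirlet7a-1 (12.6 and 11.7 CPM, distance 0.19), another gene with copies. Distance is the Euclidean distance over 2 values, so it says nothing of how the genes vary.

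On the strand opposite the genes, reads were rare. Of the 9 counted genes, 8 had 0 opposite-strand counts in both libraries. Mir124a-3 had 4 in each library, beside 0 and 12 on its own strand.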

How the data were processed

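The authors deposited 1 table of raw read counts per miRNA gene for each library, on mm10 with GENCODE M4 per the text files beside the tables. The aligner is not given in the sources used here, nor is the counter. In its layout 4 summary lines come first, then counts on either strand, on the gene's strand and on the opposite strand, which was tested on the values. The gene-strand count was used, and CPM was computed over all gene rows without the summary lines. Symbols and positions came from GENCODE M21 (same build, 1894 of 1973 identifiers matched), sequences from RefSeq, GRCm38.p6. The members and gene lists were chosen with earlier results of these data known. The labels name the libraries biological replicates, and the genes named follow a rule: all members, detected genes of the other neuronal list, glial genes, the nearest gene in level to each detected member, genes sharing a member's seed (none found), and the top gene of each marker list. Gm25641, Mir27b, Mir511, Mir1199, Mir122, Mir208b, Mir96, Mir183, Mir129-1 and Mir873a fall outside it and were picked with their values known.

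Detection was at least 10 counts in each library. The exact binomial test (scipy 1.17.1, two-sided, adjusted p under 0.05) was checked on simulated data. Log2 ratios used a pseudocount of 0.5 CPM, while the counting intervals printed beside them used none. Python 3.11.15, edgeR 4.0.16 (TMM factors) and DESeq2 1.42.0 (size factors) served the alternatives. The libraries' counts differed by more than counting error (chi-square of 83.9 for each degree of freedom). The SD over 2 libraries is their difference over the square root of 2.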

Additional observations from a re-analysis of the deposited data

Results flagged for a closer look

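Reads were seen in a column that the comparisons do not use, the count on the strand opposite the gene. At Gm25641 they came to 11 counts in replicate 1 and 8 counts in replicate 2, above the 3 counts that a count of 0 allows, and they lie on the strand of Mir9-1. At Mir124a-3 there were 4 opposite-strand counts in replicate 1 and 4 in replicate 2, also above that limit, with no gene annotated on that strand.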

How the results depend on the processing

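The 5 settings of count and scaling were the gene-strand count, unstranded count, totals over all reads, TMM factors and DESeq2 size factors. The calls of Mir137 and Mir9-3 held in these 5. Their adjusted p by the exact binomial test ran from 8.1e-07 to 0.00028 and from 0.0117 to 0.0268. Mir124a-2 passed in the same 5, from 0.0287 to 0.0465. Mir124a-3 lost its call with the unstranded count (log2 ratio 1.40, adjusted p = 0.0924). The minimum count enters the test as well, and adjusted p under other minimums is not given here. With a minimum of 1 count in all, 4 members passed, where 22.9% of all tested genes did. With a minimum of 20 counts in all, Mir124a-2 and Mir124a-3 left the test. Of the members still tested 2 passed, where 45.5% of all tested genes did, and the median log2 ratio was -0.20 in place of 0.09. Taking CPM over all reads lowered the member sum to 477 CPM and the other neuronal list to 6561 CPM by construction, and the unstranded count gave that list 15525 CPM. The number detected was 5 with the unstranded count and with a minimum of 5 or 20 counts in each library. Scaling and pseudocounts do not enter it. Single libraries gave member sums of 1126 and 1187 CPM. Adding the reads at the Mir9-1 locus, chosen after seeing the data, gave 1159 CPM. No ratio can be had without a replicate. No paired analysis was possible because the series has 1 group. The Mir124a copies and Mir9-2 had at most 16 counts in a library, so counting error was wide for them. The part of depth and of reads that fit several copies in these low counts was not tested.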
